A study of Homo sapiens with 60 samples.

Results

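The clustered and linker histone genes are the genes for the core histones H2A, H2B, H3 and H4 that lie in histone gene clusters, together with the genes for linker histone H1. They were chosen by gene symbol, with older symbols of the HIST type counted as the same genes. No expression value entered that rule, but this family and the gene lists set beside it were chosen with earlier results of these data known. The symbols picked 73 of 60675 genes in the count table, and 72 are described here: 9 for H1, 17 for H2A, 18 for H2B, 13 for H3 and 15 for H4. Of these, 55 lie on chromosome 6, 13 on chromosome 1 and 2 each on chromosomes 3 and 12.

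Messenger RNA was sequenced from HT29 cells, a line established from a human colorectal adenocarcinoma, after 24 h of treatment. The cells received LY294002 at 10 µM, wortmannin at 10 µM, a hot water extract of a medicinal plant at 20, 100 or 500 µg/mL, or vehicle, which was 0.1% DMSO in the sample labels and 2% DMSO in the series text. LY294002 and wortmannin are inhibitors of phosphoinositide 3-kinase (PI3K), a kinase that relays growth factor signals. There were 6 extracts: Paeoniae Radix, Angelicae Gigantis Radix, Panax ginseng, the licorice root Glycyrrhizae Radix, Atractylodis Rhizoma and Poria cocos. The text calls them Paeoniae, Angelicae, Ginseng, Glycyrrhizae, Atractylodis and Poria. The 60 libraries formed 21 groups, 18 of 3 libraries and 3 of 2 libraries, which were those of Paeoniae. All came from this 1 cell line, and no label states that the replicates were grown separately, so the p-values measure only the spread between these samples.

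Histone proteins pack DNA into nucleosomes: H2A, H2B, H3 and H4 form the core, and H1 binds the linker DNA between cores. Most clustered histone genes are transcribed while DNA is copied, have no introns, and give messenger RNAs that end in a conserved stem-loop, bound by SLBP, in place of a poly(A) tail. Those RNAs decay when DNA synthesis stops. The linker gene H1-10 lies outside the clusters and gives polyadenylated RNA. Several clustered genes can also be read past the stem-loop to a downstream poly(A) site, a form described in differentiating and resting cells. The labels name an mRNA library kit without its selection step, so how far RNAs without a tail were captured is not known from the labels. Of 16 listed RNAs that lack a poly(A) tail, 5 passed the filter on low counts.

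The stem-loop was found in the GENCODE 29 gene models of 30 of the 72 genes, in 5 distinct versions of 16 bases. The 6 examples below are the genes on which the results turn and 1 gene for each remaining version, shown 5′ to 3′ on the strand of the gene with the 16 bases in capitals.
H2BC21: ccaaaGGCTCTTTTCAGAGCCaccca
H2AC6: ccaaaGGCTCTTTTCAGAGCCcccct
H2BC5: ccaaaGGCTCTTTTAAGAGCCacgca
H4C15: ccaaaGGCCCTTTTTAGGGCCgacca
H4C8: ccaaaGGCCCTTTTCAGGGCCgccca
H2AC11: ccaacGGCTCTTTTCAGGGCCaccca
The first version, shared by H2BC21 and H2AC6, was in 17 genes for H2A, H2B and H3. The version of H2BC5 was in 4 genes, that of H4C15 in 3, that of H4C8 in 5 and that of H2AC11 in that gene alone. The H2AC6 stem-loop lies at chr6:26124664-26124689 and that of H4C15 at chr1:149860764-149860789 (GRCh38), 43 bases after the stop codon in H2AC6 and 35 bases after it in H4C15. The annotated models go on past the stem-loop by up to 1128 bases in H2AC6, 1314 bases in H4C15 and 1729 bases in H2BC21. In all, 22 of the 30 genes have a model that extends at least 100 bases past the stem-loop and 8 have models that end sooner, while no stem-loop was found in the models of the other 42.

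Many promoters of these genes also share short motifs. RefSeq (GRCh38.p14) had a promoter, 250 bases before to 50 bases after the start, for 67 of the 72 genes. The promoters of H2BC21 (chr1:149886633-149886932, minus strand) and H2AC6 (chr6:26123922-26124221, plus strand) are shown because these clustered genes were called in the largest number of the comparisons described below, 6 for H2BC21 and 4 for H2AC6. Capitals mark, on either strand, the NF-Y box CCAAT, the TATA box TATAAA and the octamer ATTTGCAT, and no marked match overlaps another.
H2BC21: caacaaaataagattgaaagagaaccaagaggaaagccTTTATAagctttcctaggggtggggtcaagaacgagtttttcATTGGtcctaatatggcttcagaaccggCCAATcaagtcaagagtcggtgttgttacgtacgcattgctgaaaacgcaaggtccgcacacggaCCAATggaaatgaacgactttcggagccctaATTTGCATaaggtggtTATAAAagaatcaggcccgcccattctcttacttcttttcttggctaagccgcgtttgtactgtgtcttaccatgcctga
H2AC6: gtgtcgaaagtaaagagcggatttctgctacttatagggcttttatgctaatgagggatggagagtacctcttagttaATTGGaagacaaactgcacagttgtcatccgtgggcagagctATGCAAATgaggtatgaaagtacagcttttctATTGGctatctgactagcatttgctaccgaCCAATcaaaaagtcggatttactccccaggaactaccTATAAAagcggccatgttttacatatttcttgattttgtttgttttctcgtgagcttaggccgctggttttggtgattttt
CCAAT, bound by the factor NF-Y, was present in 83.6% of the histone gene promoters, against 35.7% of all 27305 promoters. It was in 100% of the H2A, H2B and H3 promoters and 88.9% of the H1 promoters. Only 23.1% of the 13 H4 promoters had it, below the share of all promoters. TATAAA was in 64.2% of the histone gene promoters, against 12% of all promoters. The octamer ATTTGCAT, bound by OCT1, was in 38.8%, against 1.8% of all. The octamer was found in 77.8% of H2B and 68.8% of H2A promoters and in none of the 13 H4 or 9 H1 promoters. A match is a description of these letters and not of a bound site.

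Of the 72 genes, 34 passed the filter on low counts and were tested, and the same number passed when the LY294002 libraries were left out of the filter. The tested genes were 2 of 9 for H1, 6 of 17 for H2A, 13 of 18 for H2B, 5 of 13 for H3 and 8 of 15 for H4. All 22 genes with a model extending at least 100 bases past the stem-loop were tested. So were 6 of the 8 with models that end sooner and 6 of the 42 with no stem-loop found in their models. The 38 genes not tested averaged at most 0.132 CPM, the read count relative to the TMM-corrected library total, over the 60 libraries, and none exceeded 0.339 CPM in a library. Of these, 5 had no count in any library. The median annotated exon length was 1520.5 bases among tested genes and 394.5 bases among those not tested.

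Per kilobase of annotated exon, the level among these genes was highest for H1-10 at 41.0 CPM per kb. Then came H2BC12 at 15.7, H2AC6 at 7.02, H2AC25 at 5.53, H2AC19 at 5.25, H1-2 at 3.99, H2BC5 at 3.39, H4C15 at 2.83 and H2BC21 at 2.43 CPM per kb. This order depends on the annotated exon length, which was 381 bases for H2BC12 and 2194 bases for H2BC21. Not divided by length, H2BC12 averaged 5.96 CPM and H2BC21 5.33 CPM. The annotation used for counting is not stated. H1-10 encodes the linker variant H1.X, and H1-2 is a linker histone gene of the chromosome 6 cluster. A total of 17 genes averaged at least 1 CPM and 2 at least 10 CPM. The library totals were 20431980 to 35477712 expected counts, so 1 CPM stood for about 20 to 35 counts in a library, and the tested gene with the lowest level averaged 0.189 CPM.

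Most of the expressed histone genes were higher with LY294002. Of the 34 tested genes, 24 rose and 1 fell against vehicle, where 18.7% of all genes rose and 20.5% fell (39.2% called in either direction, edgeR quasi-likelihood test, Benjamini-Hochberg adjusted p under 0.05 over 16767 genes). The median log2 fold change of the 34 was 1.05, against 0.007 over all genes, and 19 of the 25 called genes changed at least 2-fold. In 23 of the 34, all 3 LY294002 libraries lay above all 3 vehicle libraries, which held for 21.6% of all genes. DESeq2 called 22 of the 34. RNA was taken from whole cultures, so more RNA per cell and a changed mix of cells cannot be told apart.

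Among the H2A genes, H2AC6 (GRCh38, chromosome 6, 26124145 to 26139116, plus strand) had the highest level per kilobase, and had 28.9, 31.4 and 36.9 CPM with LY294002, against 10.9, 11.8 and 11.6 CPM with vehicle. Every LY294002 library stood far above every vehicle library. The log2 fold change was 1.503 ± 0.114 (SE; adjusted p 5.36e-15). H2AC25, on the minus strand of chromosome 1, had 9.41, 10.2 and 10.3 CPM with LY294002, against 5.51, 4.40 and 4.11 CPM with vehicle, again without overlap (1.09 ± 0.13, adjusted p 1.2e-09). H2AC11 rose by a log2 fold change of 0.69. H2AC8, at a mean of 0.796 CPM with LY294002 and 0.329 CPM with vehicle, was called but lost its call without vehicle replicate 1 or without vehicle replicate 2.

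The H2B genes were the largest class, with 9 of 13 higher and 1 lower. H2BC21 (chromosome 1, 149884459 to 149886652, minus strand) had 18.003, 19.164 and 16.788 CPM with LY294002, against 5.76, 5.54 and 4.84 CPM with vehicle (log2 fold change 1.74 ± 0.14, adjusted p 6.32e-14). H2BC5 (chromosome 6, 26158146 to 26171349, plus strand) had 7.66, 10.1 and 10.5 CPM with LY294002, against 2.433, 2.878 and 2.697 CPM with vehicle (1.82 ± 0.15, adjusted p 1.15e-13). Both sets of libraries were well apart. H2BC18 on chromosome 1 had 1.87, 1.83 and 2.60 CPM with LY294002, against 0.430, 0.538 and 0.911 CPM with vehicle (1.73 ± 0.26). H2BC8 had 2.10, 2.98 and 3.30 CPM with LY294002, against 1.15, 0.904 and 1.02 CPM with vehicle (1.45 ± 0.25). The groups overlapped for neither gene. H2BC12, the H2B gene with the highest level per kilobase, rose by a log2 fold change of 0.69 ± 0.16, with 6.84, 8.93 and 9.32 CPM against 5.08, 5.59 and 4.90 CPM with vehicle.

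H2BC4 and H2BC7 were also called, and each call was lost when single libraries were left out (vehicle replicate 1 for H2BC4, and 4 of the 6 for H2BC7). The 1 gene that fell, H2BC13, was near the limit of detection. It had 0.117, 0.0744 and 0.0375 CPM with LY294002, against 0.0854, 0.370 and 0.309 CPM with vehicle. The groups overlapped, and the call (log2 fold change -1.69 ± 0.61, adjusted p 0.0232) was lost without any of 4 of the 6 libraries. The H2B genes not called were H2BC6, H2BC11 and H2BC15.

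Of the 5 tested H3 genes, 4 rose. H3C6 had 4.39, 4.80 and 6.11 CPM with LY294002, against 2.48, 2.75 and 2.61 CPM with vehicle, with no overlap (log2 fold change 0.96 ± 0.16, adjusted p 4.58e-06). H3C10 had 2.72, 2.79 and 2.74 CPM with LY294002, against 1.02, 1.31 and 1.15 CPM with vehicle (1.24 ± 0.20). H3C8 had 2.25, 2.23 and 2.55 CPM with LY294002, against 1.88, 2.14 and 1.81 CPM with vehicle, and was not called (0.27 ± 0.15, adjusted p 0.179), although its libraries did not overlap.

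Of the 8 tested H4 genes, 4 rose. H4C15 (chromosome 1, 149854045 to 149861210, minus strand) had 13.3, 11.5 and 19.3 CPM with LY294002, against 4.95, 5.70 and 4.67 CPM with vehicle (1.52 ± 0.20, adjusted p 1.38e-08). H4C8 rose by a log2 fold change of 1.07. H4C9 was called with overlapping groups and lost the call without any of 4 of the 6 libraries. H4C3, H4C5, H4C11 and H4C16 were not called. All 4 averaged under 1 CPM in both groups.

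**Figure D1:**
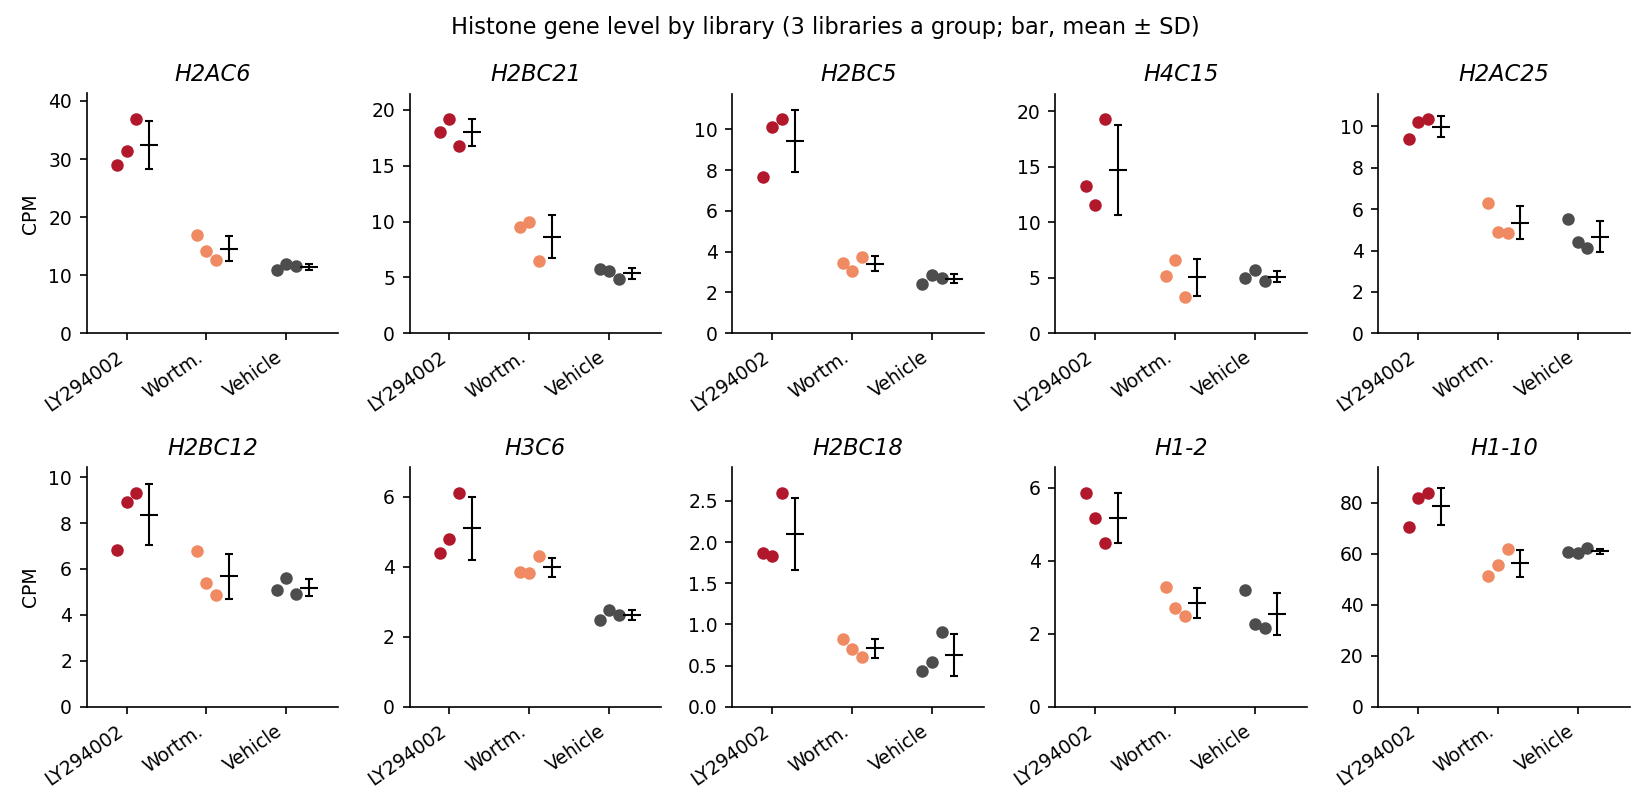
Each panel plots the CPM of a histone gene (y axis) in the 3 LY294002, 3 wortmannin and 3 vehicle libraries (points), with the mean ± SD beside them. H2AC6 stands between 28.9 and 36.9 CPM with LY294002, and H2BC18 between 1.83 and 2.60 CPM, each above every wortmannin and vehicle library.

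Both linker histone genes of the 34, H1-2 and H1-10, were called higher. H1-2 had 5.87, 5.17 and 4.50 CPM with LY294002, against 3.20, 2.26 and 2.17 CPM with vehicle (log2 fold change 1.02 ± 0.17, adjusted p 4.87e-06), without overlap. H1-10 (chromosome 3, 129314771 to 129316277, minus strand) had 70.4, 81.7 and 83.9 CPM with LY294002, against 60.6, 60.3 and 62.1 CPM with vehicle (0.37 ± 0.08, adjusted p 0.000115). An antisense gene, H1-10-AS1, overlaps it, and whether strand was used in counting is not stated.

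The genes of 3 pairs are near-identical copies that share reads, so their separate values are uncertain. In all counts of genes called given here, both genes of a pair are counted, although their values are not independent. H3C14 and H3C15 held exactly the same value in 59 of 60 libraries, H2AC18 was at 0 in 27 libraries where H2AC19 was at 0 in 2, and every H4C14 and H4C15 value was a fraction. Summed, H2AC18 and H2AC19 had 8.91, 9.61 and 8.39 CPM with LY294002, against 3.07, 3.00 and 2.96 CPM with vehicle (log2 fold change 1.57 ± 0.15, adjusted p 1.06e-11, in an edgeR fit with the pairs summed). The sum of H3C14 and H3C15 was 3.62, 3.42 and 3.53 CPM with LY294002, against 1.49, 1.03 and 1.19 CPM with vehicle (1.51 ± 0.21, adjusted p 8.69e-08). That of H4C14 and H4C15 was 17.03, 17.98 and 25.58 CPM with LY294002, against 7.39, 6.74 and 5.66 CPM with vehicle (1.61 ± 0.12, adjusted p 5.32e-15). In none of the 3 sums did the groups overlap.

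By sequence class, 12 of the 16 tested genes with the H2BC21 version of the stem-loop rose and 1 fell, with a median log2 fold change of 1.29. The H2BC5 version had 3 of 4 higher (median 0.90), and the H4C15 version 3 of 3 (median 1.52). The version of H4C8 had 1 of 4 higher (median 0.60), near the share of all genes, and these 4 genes averaged 0.224 to 0.821 CPM. Of all genes, 18.7% rose and 20.5% fell. A difference between the versions was not tested. Of the 22 genes whose models extend at least 100 bases past the stem-loop, 17 rose, with a median of 1.09. Of the 6 tested genes with models ending sooner, 3 rose and 1 fell, with the same median of 1.09. Of the 6 tested genes with no stem-loop found in their models, 4 rose, with a median of 0.53. Over all 42 genes of that class, the longest model had a median of 403.5 bases. A stem-loop past the end of a model would not have been found, so these classes describe the models.

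Genes on both main histone chromosomes rose. On chromosome 6, 14 of 22 tested genes rose and 1 fell, where 18.7% of all genes rose and 20.5% fell. On chromosome 1, 9 of 10 rose. Those 10 include all 3 pairs of near-identical copies, so the 9 calls are not independent of each other. Of 11 pairs of H2A and H2B genes that start head to head within 1 kb, 4 had both genes tested, and in 3 of these both rose: H2AC25 with H2BC26, whose starts are 234 bases apart, H2BC4 with H2AC6 (219 bases) and H2BC8 with H2AC8 (283 bases). In the other pair, H2BC11 and H2AC11, 292 bases apart, H2AC11 alone was called.

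With wortmannin, 3 of the 34 genes rose and 0 fell against vehicle, where 6.26% of all genes rose and 7.46% fell (13.7% in either direction). The median log2 fold change of the 34 was 0.06, against 0 over all genes. DESeq2 called 3, and 8 had an unadjusted p under 0.05. All 3 wortmannin libraries lay above all vehicle libraries in 5 of the 34 and below them in 2, against 13.7% and 14.4% of all genes. The wortmannin and LY294002 comparisons share the vehicle libraries. The sample codes of vehicle begin with a letter A that those of both inhibitors lack, and its meaning is not stated. Inhibitor and this code difference cannot be told apart in the comparisons with vehicle.

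H2BC21 had 9.49, 9.98 and 6.47 CPM with wortmannin, against 5.76, 5.54 and 4.84 CPM with vehicle, without overlap (log2 fold change 0.69 ± 0.15, adjusted p 0.000881). H3C6 had 3.845, 3.816 and 4.299 CPM with wortmannin, against 2.48, 2.75 and 2.61 CPM with vehicle (0.60 ± 0.17, adjusted p 0.0106). H2AC6 had 16.9, 14.2 and 12.6 CPM with wortmannin, against 10.9, 11.8 and 11.6 CPM with vehicle (0.35 ± 0.12, adjusted p 0.0396). The H2AC6 groups stood close together, and its call was lost without any of 5 of the 6 libraries.

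Other genes that rose with LY294002 were not called with wortmannin. H2BC5 had 3.45, 3.05 and 3.74 CPM with wortmannin, all above the vehicle libraries, and missed the threshold (0.35 ± 0.17, adjusted p 0.176). H4C15 had 5.17, 6.62 and 3.30 CPM with wortmannin, on both sides of the vehicle libraries (-0.01 ± 0.22). Of the summed copies, H2AC18 with H2AC19 rose, at 5.82, 4.33 and 4.35 CPM with wortmannin against 3.07, 3.00 and 2.96 CPM with vehicle (0.68 ± 0.16, adjusted p 0.00252). H2AC18 alone was listed at 0 in the 3 wortmannin libraries. The other sums were not called (0.43 ± 0.23 for H3C14 with H3C15, 0.32 ± 0.13 for H4C14 with H4C15).

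**Figure D2:**
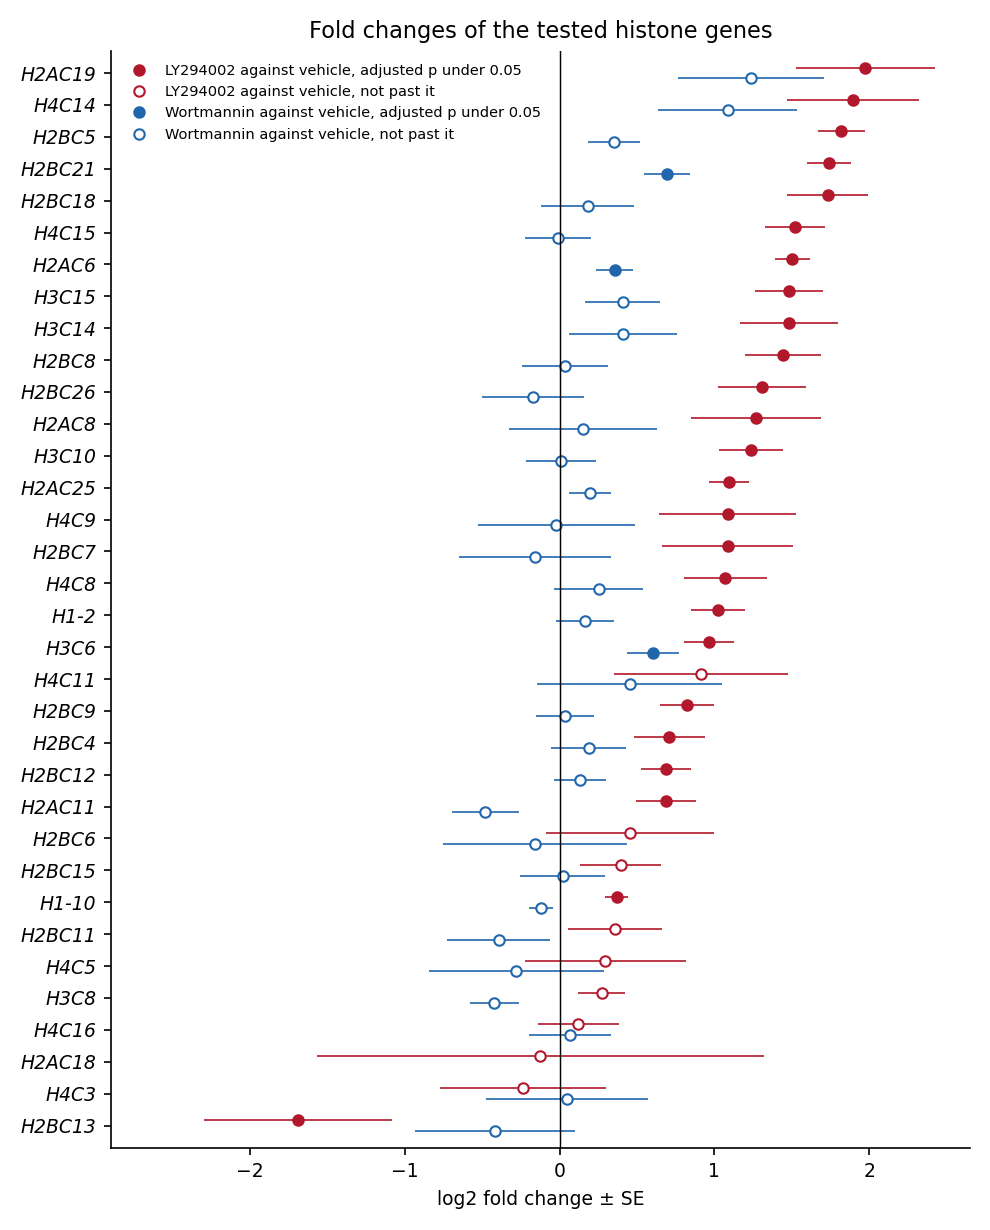
Log2 fold change ± SE (x axis) of the 34 tested histone genes (y axis, ordered by the change with LY294002) for LY294002 and wortmannin against the same vehicle libraries, filled where the adjusted p was under 0.05. With LY294002, 24 genes are called above 0 and H2BC13 below it, and with wortmannin, 3 are called above 0. The wortmannin value of H2AC18, listed at 0 there, is left out.

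Set directly against wortmannin, LY294002 gave higher levels of 20 of the 34 genes and lower levels of none, where 9.49% of all genes were higher and 12.7% lower (22.2% in either direction). DESeq2 called 18, and 25 had an unadjusted p under 0.05. The 2 genes with values below 0 were H2BC13 (-1.28, adjusted p 0.155) and H4C3 (-0.28, adjusted p 0.758). The median log2 fold change was 0.84, against 0.003 over all genes, and 13 genes differed at least 2-fold. In 24 genes, all LY294002 libraries lay above all wortmannin libraries, as in 14.3% of all genes. Both inhibitors were given at 10 µM, and whether that dose inhibits PI3K equally is not known from these data.

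Of the genes called between the inhibitors, those with the largest differences were H2BC18 (1.55 ± 0.25), H4C15 (1.53 ± 0.19), H2BC26 (1.48 ± 0.29), H2BC5 (1.47 ± 0.15, adjusted p 7.12e-11) and H2BC8 (1.41 ± 0.24). H2BC26, an H2B gene on chromosome 1, had 1.32, 1.64 and 1.69 CPM with LY294002 and 0.471, 0.550 and 0.647 CPM with wortmannin. H2AC6 differed by 1.15 ± 0.11 (adjusted p 2.58e-11) and H2BC21 by 1.05 ± 0.13 (adjusted p 4.28e-08). H2AC11 had 2.80, 2.79 and 3.00 CPM with LY294002, against 1.14, 1.54 and 1.11 CPM with wortmannin, so that it differed by 1.17 ± 0.20. Vehicle, at 1.83, 1.81 and 1.68 CPM, lay between.

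The linker gene H1-10 was higher with LY294002 than with wortmannin by 0.49 ± 0.08 on the log2 scale. It had 51.3, 55.5 and 61.8 CPM with wortmannin. H3C8, not called against vehicle, was higher by 0.69 ± 0.15 (adjusted p 0.000723). For H3C6, the difference was 0.36 ± 0.15 and was not called (adjusted p 0.0893). The calls of H2BC12, H3C14, H4C8, H2BC7 and H2AC8 were lost when single libraries were left out: H2BC12 without LY294002 replicate 3 (0.47) or wortmannin replicate 3 (0.46), H3C14 without wortmannin replicate 2 (0.92), H4C8 without LY294002 replicate 2, wortmannin replicate 1 or wortmannin replicate 3, H2BC7 without any of 5 libraries and H2AC8 without any of the 6.

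Over the 71 genes other than H1-10, the summed level was 137.9, 150.1 and 162.4 CPM with LY294002, 84.0, 73.6 and 67.2 CPM with wortmannin, and 64.4, 63.0 and 59.1 CPM with vehicle. The LY294002 libraries were the highest of all 60, and the wortmannin libraries lay above those of vehicle. As the sum follows the few genes with the highest levels, it was not tested. H2AC6, H2BC21, H2BC5 and H4C15 together made up 48.2% to 51.4% of it with LY294002, 38.9% to 46.0% with wortmannin and 37.3% to 41.2% with vehicle. Taken gene by gene, LY294002 was the group with the highest mean of all 21 groups for 27 of the 34 genes.

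**Figure D3:**
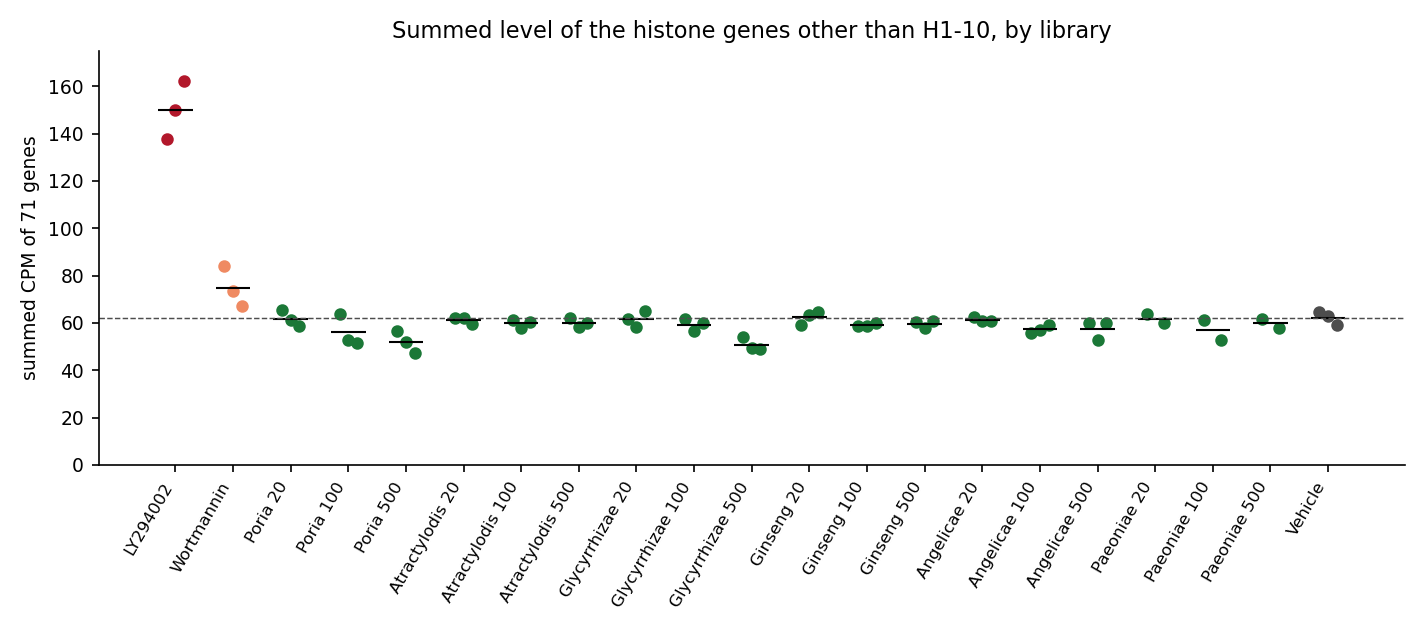
Summed CPM (y axis) of the 71 histone genes other than H1-10 in each library (points), with the group mean (bar) and the vehicle mean (dashed line), over the 21 groups (x axis, extract doses in µg/mL). The LY294002 libraries lie between 137.9 and 162.4 CPM, and the means of all extract groups lie between 50.8 and 62.3 CPM.

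Among the extracts, histone genes were called with Poria and with Glycyrrhizae at 500 µg/mL, and differences between extracts were tested separately. Each extract was set against the vehicle libraries, whose sample codes begin with another number than those of the extracts, so extract and code set cannot be told apart there. A DMSO content is listed for vehicle and not for the extracts, so a difference in solvent cannot be told apart there either. The comparison of 500 with 20 µg/mL stays within a code set. Vehicle and the 20 µg/mL group of an extract serve as separate references for the same 500 µg/mL libraries.

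Poria at 500 µg/mL lowered 2 of the 34 genes and raised none, where 2.89% of all genes fell and 4.6% rose (7.49% in either direction). Its log2 fold changes were below 0 for 28 of the 34, against 52.4% of all genes, with a median of -0.26 against -0.0093. DESeq2 called 1, and 5 had an unadjusted p under 0.05. H2BC21 had 6.03, 4.43 and 4.73 CPM at 20, 4.87, 3.57 and 3.15 CPM at 100 and 3.86, 2.93 and 2.81 CPM at 500 µg/mL of Poria. With vehicle it had 5.76, 5.54 and 4.84 CPM, so the libraries at 500 µg/mL lay below all of vehicle and of the lowest dose. At each dose the Poria library numbered 1 was the highest.

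For H2BC21, the log2 fold change at 500 µg/mL of Poria against vehicle was -0.74 ± 0.17 (adjusted p 0.00368), and -0.90 without Poria 500 replicate 1. H2BC4 had 0.526, 0.474 and 0.537 CPM at 500 µg/mL and a mean of 1.01 CPM with vehicle (-0.97 ± 0.27, adjusted p 0.0195), a call lost without any of 4 of the 6 libraries. Of 500 against 20 µg/mL, where 5.51% of all genes were called, 1 histone gene fell. It was again H2BC21 (-0.65 ± 0.17, adjusted p 0.0138), and the call was lost without Poria 20 replicate 1 (-0.50), Poria 500 replicate 2 (-0.59) or replicate 3 (-0.56). In that comparison 26 of the 34 were below 0, against 50.6% of all genes. H2AC6 had 12.7, 11.9 and 9.21 CPM at 20, 12.4, 8.99 and 8.24 CPM at 100 and 9.61, 8.84 and 8.85 CPM at 500 µg/mL of Poria, and no call was made.

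Glycyrrhizae at 500 µg/mL lowered 2 genes and raised none against vehicle, where 6.91% of all genes were called (3.26% lower and 3.65% higher). Values were below 0 for 26 of the 34, against 51.2% of all genes, with a median of -0.28. DESeq2 called 2, and 8 had an unadjusted p under 0.05. H2BC21 had 4.823, 4.303 and 4.75 CPM at 20, 5.08, 4.46 and 3.82 CPM at 100 and 3.33, 3.01 and 3.64 CPM at 500 µg/mL. All 500 µg/mL libraries lay below the other doses and vehicle (log2 fold change against vehicle -0.69 ± 0.17, adjusted p 0.00626).

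H2AC6 had 11.1, 9.49 and 11.3 CPM at 20, 10.8, 9.18 and 10.6 CPM at 100 and 9.82, 8.58 and 6.89 CPM at 500 µg/mL of Glycyrrhizae (-0.44 ± 0.13 against vehicle, adjusted p 0.0264). This call was lost without any of 4 of the 6 libraries. For 500 against 20 µg/mL, where 3.85% of all genes were called, 1 histone gene fell: H2AC25, with 5.56, 4.47 and 5.36 CPM at 20, 4.07, 5.08 and 5.04 CPM at 100 and 4.12, 4.03 and 2.40 CPM at 500 µg/mL (-0.54 ± 0.14, adjusted p 0.0181). It rested on the library at 2.40 CPM, without which the value was -0.33 and not called, and it was also lost without Glycyrrhizae 20 replicate 1 (-0.48) or replicate 3 (-0.50) and in a fit of the compared libraries alone (adjusted p 0.134). Of the 34, 27 were below 0, against 51.8% of all genes, and DESeq2 called 2.

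**Figure D4:**
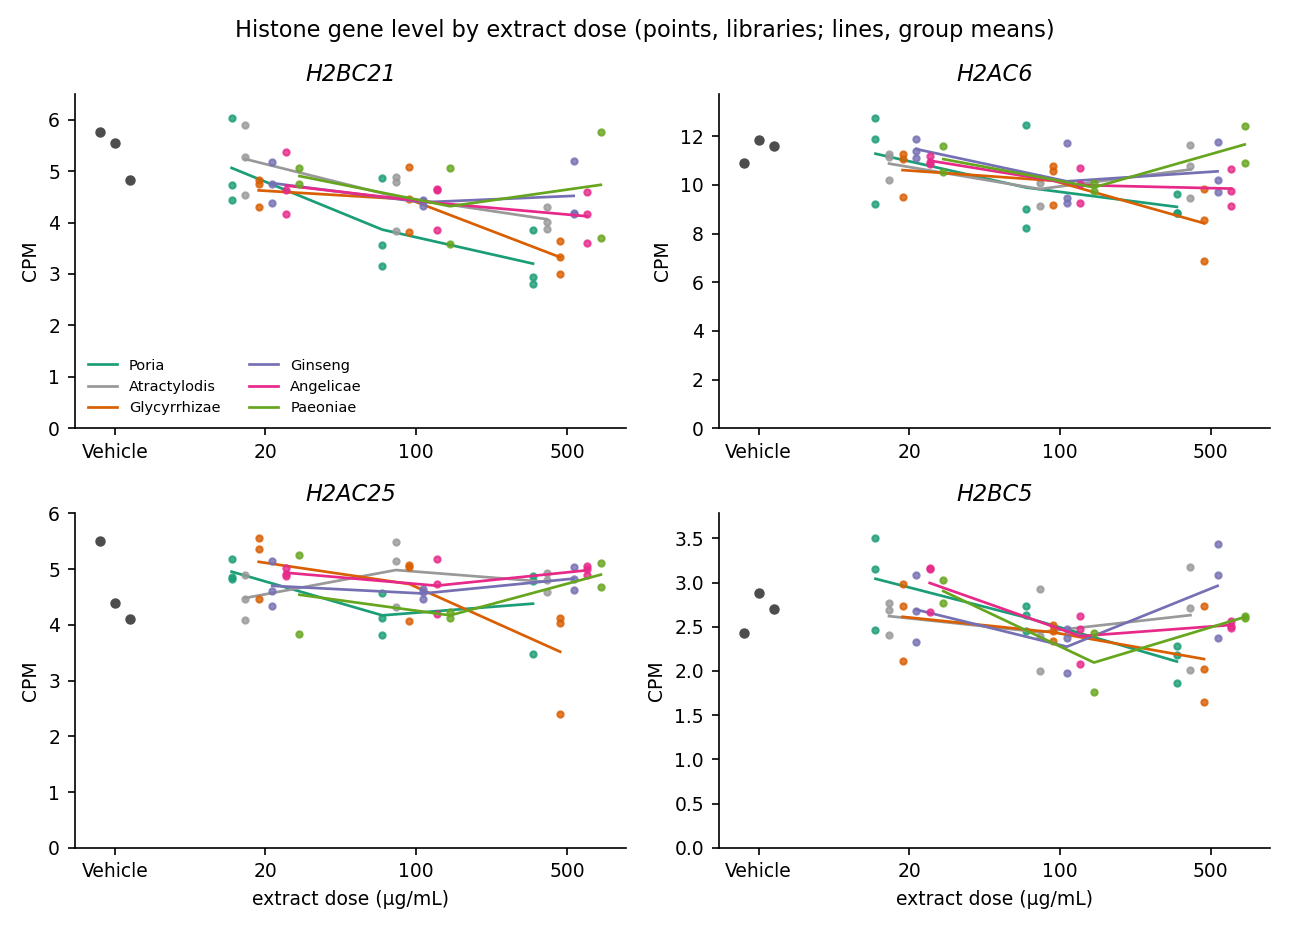
CPM (y axis) of 4 histone genes in vehicle and at 20, 100 and 500 µg/mL of each extract (x axis, log-spaced doses), with points for libraries and lines through group means. H2BC21 is lowest at 500 µg/mL of Poria and of Glycyrrhizae, and H2BC5, not called with any extract, averages 2.107 and 2.135 CPM at those doses and 2.669 CPM with vehicle.

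With Atractylodis, Ginseng, Angelicae and Paeoniae at 500 µg/mL, edgeR called 0 histone genes against vehicle, where it called 0.25%, 0.352%, 0.161% and 0.161% of all genes in that order. An unadjusted p under 0.05 was found for 3, 1, 2 and 1 of the 34 genes, and DESeq2 called 0 in each. Values below 0 against vehicle were also common in comparisons with no call: 26 of the 34 with Angelicae 100 and with Paeoniae 100, 25 with Angelicae 500, and 16 to 23 in the other extract comparisons with none, all against the same vehicle libraries. For 500 against 20 µg/mL of the same 4 extracts, edgeR and DESeq2 called 0, an unadjusted p under 0.05 was found for 2, 3, 2 and 0, and 0%, 0%, 0.0179% and 0.0358% of all genes were called. Over the 12 comparisons of 20 or 100 µg/mL with vehicle, 408 tests gave 0 calls by edgeR and by DESeq2 and 14 with an unadjusted p under 0.05, where 0% to 0.37% of all genes were called. At 20 and then 100 µg/mL, these shares were 0% and 0.0417% for Poria, 0.137% and 0.364% for Atractylodis, 0.37% and 0.34% for Glycyrrhizae, 0% and 0% for Ginseng, 0.173% and 0.00596% for Angelicae and 0% and 0.0477% for Paeoniae.

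The difference of the 500 against 20 µg/mL effect between extracts was tested for the pairs in the same code set. EdgeR called 0 histone genes for Atractylodis minus Poria, with 3 at an unadjusted p under 0.05 and 0.394% of all genes called. For Ginseng minus Glycyrrhizae it called 0, with 3 at an unadjusted p under 0.05 and 0.0477% of all genes called. For Paeoniae minus Angelicae it called 0, with 1 at an unadjusted p under 0.05 and 0% of all genes called. DESeq2 called 0 in each. The dose effects of Poria and of Glycyrrhizae on histone genes are thus not shown to differ from those of the paired extracts. The summed level of the 71 genes averaged 61.7, 56.1 and 52.0 CPM at 20, 100 and 500 µg/mL of Poria and 61.7, 59.3 and 50.8 CPM at those doses of Glycyrrhizae. In the other extract groups it averaged 57.1 to 62.3 CPM, and with vehicle 62.1 ± 2.77 CPM (SD, n = 3).

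Genes for DNA replication and for carrying histones to DNA fell with LY294002. All 30 genes on the DNA replication list fell against vehicle, where 20.5% of all genes fell. Their median log2 fold change was -0.57, against 0.007 over all genes. RRM2, the regulated subunit of ribonucleotide reductase, which makes the building blocks of DNA, had 174.7 ± 1.53 CPM with LY294002 and 288.4 ± 9.19 CPM with vehicle (SD, n = 3 each; -0.72 ± 0.03, adjusted p 3.92e-22, edgeR). RRM1, its large subunit, changed by -0.58, and the replication initiation factors CDC45 and CDC6 changed by -0.72 and -0.60. Of 23 genes for histone chaperones and related carriers, 19 fell, with a median of -0.27 (MCM2 is on both lists). They included CHAF1A, a subunit of chromatin assembly factor 1 (-0.56), ASF1B, which hands H3 and H4 on (-0.51), HAT1, which acetylates new H4 (-0.54), and SSRP1, a subunit of the FACT complex (-0.49).

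Of 15 genes for transcription and 3′ end processing of histone messenger RNA, 12 fell and 1 rose. Of all genes, 20.5% fell and 18.7% rose. SLBP, the stem-loop binding protein, had 101.4 ± 3.18 CPM with LY294002 and 120.8 ± 1.79 CPM with vehicle (SD, n = 3 each; -0.25 ± 0.05, adjusted p 7.17e-05, edgeR). NPAT, the coactivator of histone gene transcription, changed by -0.18 ± 0.06 (adjusted p 0.0202). LSM10, a U7 snRNP subunit, changed by -0.47, CSTF2, a cleavage factor, by -0.40 and ZNF473, a U7-associated zinc finger protein, by -0.29. The gene that rose was HINFP, a transcription factor for H4 genes (0.38). Of 9 genes for histone messenger RNA decay, 2 fell, near the 20.5% of all genes that did: ERI1, a nuclease that trims the stem-loop end (-0.42), and EXOSC10, an exosome nuclease (-0.34).

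Of 9 tested genes on the replacement histone list, which holds variants of core histones, 2 rose and 3 fell with LY294002. Of all genes, 18.7% rose and 20.5% fell. H2AJ, an H2A form known to accumulate in senescent cells, changed by 0.69 and H3-3A, a gene for H3.3, by 0.38. The genes that fell were CENPA, the centromeric H3 (-0.52), H2AX, the H2A form phosphorylated at DNA breaks (-0.30), and MACROH2A1 (-0.25). The 7 histone genes listed as reported elsewhere to give polyadenylated RNA, a list chosen with results of these data known, were H1-2, H1-10, H2AC6, H2BC4, H2BC5, H2BC12 and H2BC21. All 7 rose with LY294002, as did 24 of the 34 histone genes and 18.7% of all genes. Of the 5 tested RNAs without a poly(A) tail, none was called by edgeR or DESeq2 with LY294002 against vehicle, where 1 had an unadjusted p under 0.05, the RNase P RNA RPPH1 (1.34 ± 0.59, adjusted p 0.0678). With wortmannin against vehicle, SNORD3A, a U3 small nucleolar RNA, fell (-0.70 ± 0.25, adjusted p 0.0484), a call not made by DESeq2. Their summed level was 5.89 to 20.1 CPM with LY294002, 5.95 to 26.6 CPM with wortmannin and 7.92 to 18.1 CPM with vehicle. The part in these results of how the libraries captured RNAs without a tail was not tested.

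**Figure D5:**
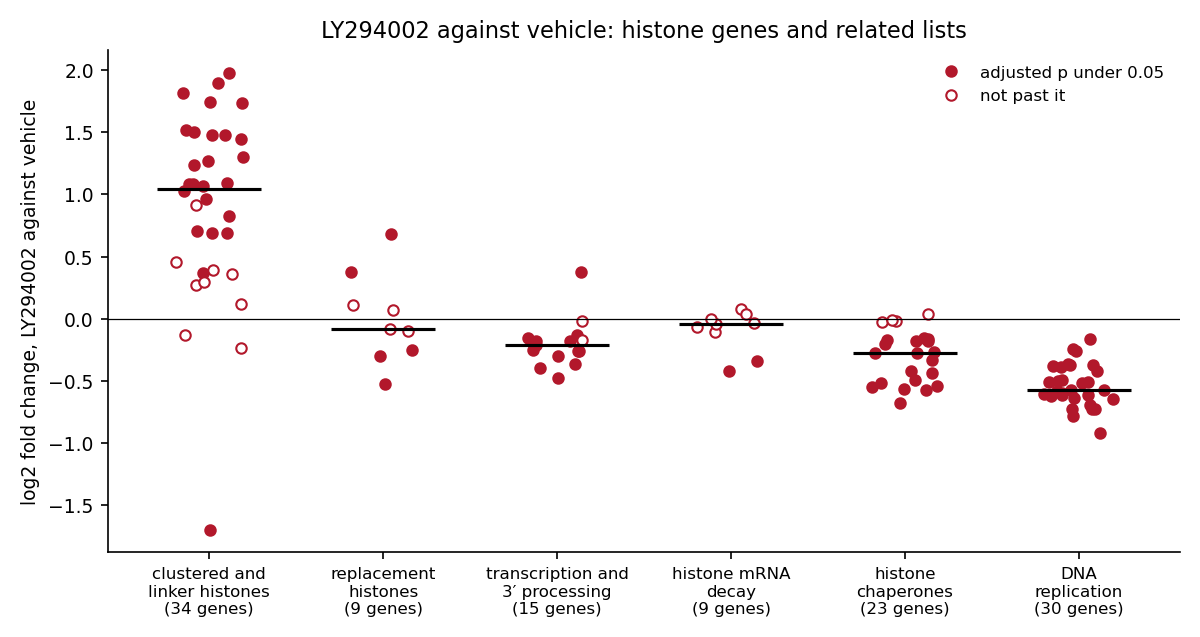
Log2 fold change with LY294002 against vehicle (y axis) of the tested genes of 6 lists (x axis), filled where the adjusted p was under 0.05, with the list median as a bar. The 34 histone genes have a median of 1.05, and all 30 DNA replication genes lie below 0.

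With wortmannin against vehicle, 3 of the 30 replication genes rose and 4 fell, where 6.26% of all genes rose and 7.46% fell. In that comparison 7 of 23 chaperone genes fell. On the list for transcription and 3′ end processing, CSTF2 (-0.19), POU2F1 (-0.21) and LSM10 (-0.30) fell. On the replacement histone list, CENPA (-0.39), H2AX (-0.26) and MACROH2A1 (-0.14) fell. The other tested genes of these last lists were not called, among them SLBP (0.06) and NPAT (0.05). LY294002 set directly against wortmannin lowered 28 of 30 replication genes (median -0.55) and 15 of 23 chaperone genes, against 12.7% of all genes. At 500 µg/mL against vehicle, 18 of 30 replication genes rose with Poria and 18 with Glycyrrhizae, as did 11 and 10 of the 23 chaperone genes. Of all genes, 4.6% rose with Poria and 3.65% with Glycyrrhizae. At 500 against 20 µg/mL, 13 replication and 9 chaperone genes rose with Poria and 11 and 4 with Glycyrrhizae. Between those doses, 5.51% of all genes were called in either direction with Poria and 3.85% with Glycyrrhizae.

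Of 11 colon epithelium markers, KRT8, KRT18, EPCAM, LGALS4, CDH1, KRT20 and VIL1 averaged 177.7 to 6656 CPM over all libraries, and CEACAM5, CDX2, CDH17 and CDX1 averaged 0.864 to 7.80 CPM. With LY294002, 7 of the 11 rose and 2 fell, where 18.7% of all genes rose and 20.5% fell. Those that rose ranged from CDH1 (0.21) to CDX2 (0.74), and those that fell were CEACAM5 (-0.93) and CDH17 (-0.68). The fibroblast and endothelium markers averaged at most 1.26 and 1.70 CPM, and of the hepatocyte markers SERPINA1 averaged 414 CPM and APOH 21.6 CPM, with ALB and APOA2 at or near 0. Of 6 leukocyte markers 3 were tested. LYZ rose (0.64) and CD68 fell (-0.82) with LY294002, the summed level was 1980 to 2552 CPM with LY294002, 1827 to 1899 CPM with wortmannin and 1378 to 1442 CPM with vehicle, and PTPRC averaged 0.0241 CPM. LYZ, at 1496 CPM on average, made up most of that sum.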

How the data were processed

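The 60 libraries were grouped by the sample labels. Per the labels' protocols, 1 µg of total RNA with a RIN above 7 entered an MGI directional mRNA library read as 100 bp pairs. Per the submitters' processing notes, the authors used FastQC 0.11.9, Trim Galore 0.6.5, STAR 2.7.3a and RSEM 1.3.3 with GRCh38. The gene annotation they counted on, and whether strand was used, are not stated in any label or header. The deposited values are RSEM expected counts, not normalised, of which 24.2% above 0 had a decimal part. Of 273 columns, 213 were not used.

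Expected counts were rounded. One edgeR 4.0.16 quasi-likelihood model (R 4.3.3) with TMM scaling covered 21 groups (39 residual degrees of freedom, common biological coefficient of variation 0.0570) after filterByExpr (minimum count 10, minimum total 15), which left 16767 genes. P-values were adjusted by Benjamini-Hochberg in each of 30 comparisons. DESeq2 1.42.0, RLE factors, no filter, the compared groups alone, a replicate block and leaving out each library were the alternatives. On simulated data made from these libraries, the LY294002 test called 92% of genes set to a log2 change of 1, 86% of those at -1, 72.9% of those at 0.5 and 61.2% of those at -0.5. Each share covers 48 to 50 genes, and every simulated gene was given the same common coefficient of variation, so differences in spread between genes were not simulated. Whether the shares hold for the tested histone genes, which averaged as little as 0.189 CPM, was not tested. Stem-loops and coordinates came from GENCODE 29, and 4 genes were matched by an older name. Named genes were those called with an inhibitor at a mean of at least 1 CPM (the largest changes), the 10 with the highest levels, those called with extracts, up to 4 a list, SLBP and NPAT. Genes outside this rule are named to account for every member and were chosen after their values were seen. Of the 73 members, 1 entered the model and is not reported here, so counts cover the other 72. The members and lists were chosen with earlier results of these data known.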

Additional observations from a re-analysis of the deposited data

How the results depend on the processing

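With LY294002, the count of histone genes called against vehicle was 21 to 24 when single libraries were left out, and 16 to 19 against wortmannin, compared with 25 and 20 in all libraries, and neither moved by over 1.5 times in any setting run. A filter set without the LY294002 libraries, chosen after seeing the data, left the same 34 genes tested. Of the values under alternative settings of genes named by the rule, 599 kept direction and call, 29 lost the call, 5 gained it and 3 turned. Of those of the called genes outside it, 123 kept and 39 lost the call. The 3 that turned were uncalled values with wortmannin: leaving out single libraries put H2BC12 between -0.016 (without wortmannin replicate 1) and 0.23, and H4C15 between -0.26 and 0.20 (without wortmannin replicate 3), with 0.078 without vehicle replicate 2. The cause was not tested.

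Without a filter on low counts, the counts were 6 with wortmannin, 5 for Glycyrrhizae 500 against 20, 4 for Glycyrrhizae 500 against vehicle, 2 for Poria 500 against 20, 8 over the 12 lower-dose comparisons, 2 and 1 for Angelicae 500 against 20 and vehicle, 1 and 2 for Atractylodis 500 against 20 and vehicle, and 1 in each of the 3 differences between extracts. DESeq2 gave 2 for Glycyrrhizae 500 against 20 and 1 for Poria 500 against vehicle. The compared libraries alone gave 0 for Poria 500 against 20, 1 for Poria 500 against vehicle and 1 for Glycyrrhizae 500 against vehicle, and ended the calls of H2AC6 with wortmannin and with Glycyrrhizae, H2AC25 with Glycyrrhizae and H2BC12 between the inhibitors. DESeq2 gave no adjusted p for H2BC4 with Poria. Leaving out single libraries gave 0 to 1 for Glycyrrhizae 500 against 20, 1 to 3 against vehicle, 0 to 3 for Poria 500 against 20, 1 to 2 against vehicle, 0 to 1 for each Paeoniae 500 comparison and 0 to 1 for Paeoniae minus Angelicae. With the Paeoniae groups, 1 library then remained, assumed to vary like the other groups.

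Replicate numbers met the rule for pairing in 0 of 27 comparisons. In 2 of 23 comparisons with 3 pairs, every library correlated best with its own number. The replicate block gave 2 calls for Glycyrrhizae 500 against 20 and 2 for Poria 500 against 20. CPM on plain library totals put the summed level of the 72 genes at 120.9 for vehicle. The 38 genes not tested, at most 0.132 CPM on average, give no comparison.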
